A study of Homo sapiens with 12 samples.

Results

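Nascent transcription in T47D cells given fulvestrant for 1 h was set against nascent transcription in T47D cells starved of hormones, to ask which genes had reached their starved level after 1 h of receptor antagonism and which had not. The comparison used 4 of the 12 libraries of the series: the 2 libraries labelled as complete medium with 100 nM fulvestrant, and the 2 labelled as starved with 0.1% DMSO as vehicle. The 2 libraries of complete medium with vehicle served as a side-by-side baseline. The 2 raloxifene and 2 tamoxifen libraries, also at 100 nM in complete medium, were used for a second choice of genes. That choice compared them with complete vehicle, but filter, scaling and spread were estimated from all 12 libraries, fulvestrant and starved included. T47D is an established human breast cancer line that carries estrogen receptor alpha and progesterone receptor. PRO-seq sequences the RNA that engaged polymerases extend in a run-on reaction, and so reads transcription at the moment of harvest rather than accumulated RNA. Starvation lasted 3 days, and drug or vehicle was present for 1 h. Medium, drug and duration all differed between fulvestrant and starved cells, so the part of each in a difference cannot be told apart. The complete vehicle libraries give each condition its distance from unstarved cells, but no group had an antagonist for 3 days. The composition of the starved medium is not stated.

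Estrogen receptor alpha, encoded by ESR1, is a ligand-activated transcription factor that binds DNA at estrogen response elements or through partner factors. Fulvestrant is a steroidal antagonist that blocks the receptor and promotes its degradation, whereas removal of serum hormones takes away its ligands together with other steroids. Luminal breast cancer cells depend on the receptor for transcription of PGR, GREB1 and MYC and for entry into the cell cycle.

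Library totals were 6134826 and 5583088 counts for fulvestrant, 7377576 and 6790454 for starved vehicle, and 6344474 and 4981796 for complete vehicle. Across the 23375 genes tested, log2 CPM (counts scaled by library size) of the 2 libraries of a group correlated with r = 0.985 for fulvestrant, 0.989 for starved vehicle and 0.987 for complete vehicle, over genes that are not independent replicates. All 26 luminal epithelial markers passed the filter on low counts, with summed levels of 11890 and 12202 CPM in fulvestrant, 11213 and 11236 CPM in starved and 13094 and 13261 CPM in complete vehicle libraries. Of 22 basal and mesenchymal markers 15 passed, with sums of 327 and 334 CPM in fulvestrant, 397 and 401 CPM in starved and 325 and 304 CPM in complete vehicle libraries; the part of these markers in the results was not tested. Of 19 stromal, endothelial and blood cell markers 6 passed, none of them called between fulvestrant and starved by edgeR or DESeq2 (1 at an unadjusted p under 0.05), and HBB, a red cell globin, was listed at 0 in each of these 6 libraries. Levels below are TMM-scaled CPM of libraries 3 and 4, in that order, and log2 differences carry the standard error of the fit.

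Fulvestrant-treated cells transcribed 1888 genes (8.08%) more and 1906 (8.15%) less than starved cells, by the quasi-likelihood test of edgeR at an adjusted p under 0.05. The counts were smaller without any 1 of the 4 libraries, with 961 to 1169 genes higher and 1165 to 1394 lower, and by DESeq2, with 943 and 969. Of the 1888 and 1906 genes called by edgeR, 162 were higher and 274 lower by at least 2-fold. The median log2 difference over all tested genes was 0.007. Scaling by library size holds this median near 0, so a shift of all genes together would not be seen. Nearness to the starved level was judged by the 95% interval of the log2 difference, since a p above the threshold does not show equality. The interval had to lie wholly within 1.5-fold in either direction. That margin is 0.585 on the log2 scale, beside 1 for a 2-fold change. Genes with a small starvation change therefore meet the rule more easily, and a gene that meets it can still lie between the vehicle levels. By that rule 11303 genes (48.4%) lay within 1.5-fold, which includes the many genes that neither condition moved. Against complete vehicle, fulvestrant raised 25 genes (0.107%) and lowered 245 (1.05%), and starvation raised 2126 genes (9.1%) and lowered 2260 (9.67%). These comparisons share libraries with the main one and are given beside it for their values only.

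**Figure D1:**
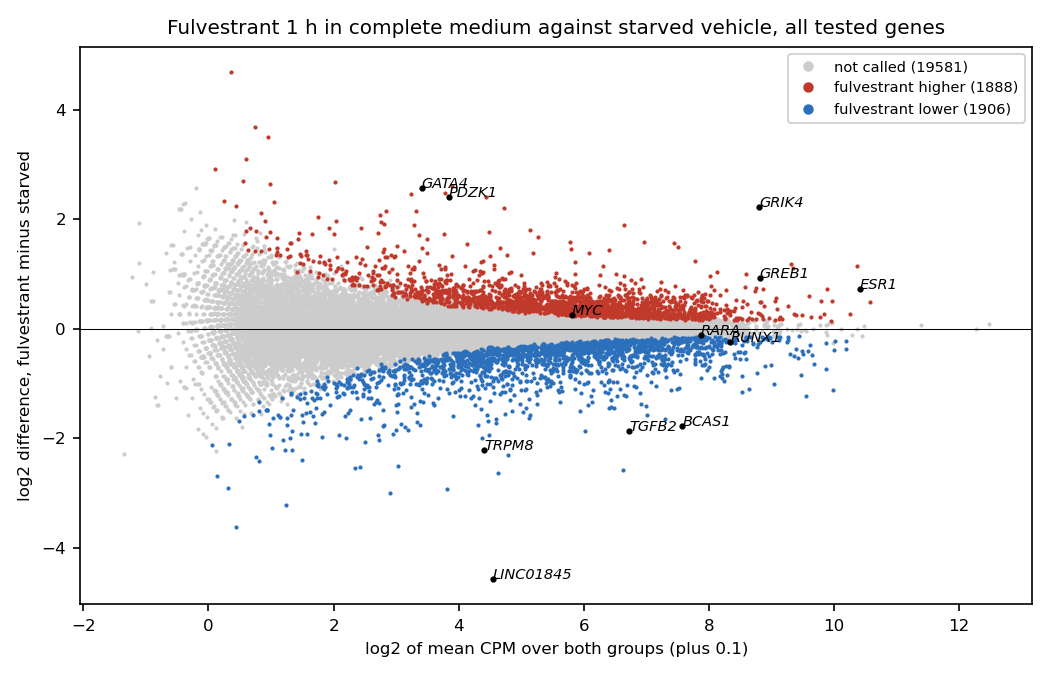
Log2 difference of fulvestrant minus starved vehicle (y axis) against the log2 of the mean CPM over both groups (x axis) for each of the 23375 tested genes. The 1888 genes called higher with fulvestrant are red, the 1906 called lower are blue, and labelled genes are marked in black. PDZK1 and GATA4 lie far above 0, LINC01845 far below, and MYC, RARA and RUNX1 close to it.

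The genes farthest above their starved level included targets of the receptor as well as genes that fulvestrant had hardly moved. GRIK4, a kainate receptor subunit, had 711 and 765 CPM in fulvestrant libraries against 169 and 146 CPM in starved libraries, a log2 difference of 2.22 ± 0.0644 (SE, adjusted p = 9e-15). Complete vehicle libraries held 795 and 807 CPM of GRIK4, so both fulvestrant libraries stayed near the unstarved level. CLSTN2, a calsyntenin of the postsynaptic membrane, had 159 and 158 CPM with fulvestrant against 41.7 and 43.3 CPM in starved cells (log2 difference 1.90 ± 0.0749, adjusted p = 7.3e-13), with 146 and 144 CPM in complete vehicle. GRIK4 (chr11:120511748-120988906) and CLSTN2 (chr3:139935185-140577397) are long genes. WT1-AS, a shorter gene, was also near its complete vehicle level (log2 difference with fulvestrant -0.06, adjusted p = 0.97). RUNX1 (chr21:34787801-35049302), also long, had a log2 difference of -1.33 from complete vehicle (adjusted p = 2.7e-12). The part of gene length in how far counts could move within 1 h was not tested. WT1, a zinc finger transcription factor, was 2.47 ± 0.19 higher on the log2 scale (adjusted p = 1.1e-08), and its antisense neighbour WT1-AS 2.45 ± 0.203 higher (adjusted p = 3e-08). By RefSeq positions WT1 (chr11:32387775-32435539) and WT1-AS (chr11:32435518-32458769) overlap only at their ends. The strand setting of the counting is not known, so reads in the overlap cannot be assigned to either gene. GATA4, a zinc finger factor of heart and endoderm development, had 19.1 and 16.9 CPM with fulvestrant against 2.3 and 3.8 CPM in starved cells, and 47.9 and 43 CPM in complete vehicle. Its level with fulvestrant lay between the vehicle groups, 2.57 ± 0.219 above starved (adjusted p = 4.3e-08) with a log2 difference of -1.34 from complete vehicle (adjusted p = 2.5e-06).

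The genes farthest below their starved level were transcribed at about the level of complete vehicle. The long noncoding RNA LINC01845 had 2.26 and 1.44 CPM with fulvestrant against 44.3 and 45.3 CPM in starved cells, a log2 difference of -4.57 ± 0.206 (adjusted p = 4.7e-12), and 1.59 and 1.02 CPM in complete vehicle. TRPM8, the cold- and menthol-gated cation channel, had 8.4 and 6.47 CPM with fulvestrant against 34.8 and 34.9 CPM in starved cells (log2 difference -2.22 ± 0.144, adjusted p = 9.8e-10). TGFB2, a secreted ligand of the transforming growth factor beta family, had 42.3 and 48.7 CPM with fulvestrant against 171 and 161 CPM in starved cells (-1.87 ± 0.107, adjusted p = 1.4e-10). In TRPM8 and TGFB2 the fulvestrant and starved libraries did not overlap, and neither gene was called between fulvestrant and complete vehicle (adjusted p = 0.95 and 0.7). BCAS1, a gene amplified in breast carcinoma, had 84.2 and 87.2 CPM with fulvestrant against 286 and 303 CPM in starved cells (-1.78 ± 0.0599, adjusted p = 5.9e-14). MYO3B, an unconventional class III myosin, and LGI1, a secreted neuronal protein, had log2 differences from starved of -1.99 and -2.51 (adjusted p = 1.8e-07 and 8.8e-06).

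Starvation lowered 279 genes (1.19%) at least 2-fold against complete vehicle. With fulvestrant 177 of them (63.4%, beside 8.08% of all tested genes) were called above the starved level and 1 (0.358%, beside 8.15%) below it. Within 1.5-fold of it lay 12 (4.3%, beside 48.4% of all tested genes), of which 5 were also called higher and 1 lower. The remaining 95 (34.1%) were neither called nor bounded within 1.5-fold. Fulvestrant was called below complete vehicle for 93 of the 279 (33.3%, beside 1.05% of all tested genes). It was above complete vehicle for none by edgeR or DESeq2, with 1 above at an unadjusted p under 0.05. The starved libraries chose these genes and also enter the comparison, so the direction of the counts is partly set by the choice. On the log2 scale fulvestrant had covered a median of 35.7% of the distance from the complete to the starved level (quartiles 15.7% and 52.9%). Each fulvestrant library taken alone gave 36.0% and 37.0%. These came from log2 CPM and not from the fit, so they need not bracket its median. By the fit fulvestrant covered under 25% in 104 genes, 25% to 75% in 152, and 75% or more in 23, of which 7 were past the starved level.

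Starvation raised 367 genes (1.57%) at least 2-fold. With fulvestrant 269 of them (73.3%, beside 8.15% of all tested genes) were called below the starved level. None was above it by edgeR or DESeq2 or at an unadjusted p under 0.05, beside 8.08% of all tested genes called higher by edgeR. None lay within 1.5-fold of it, beside 48.4% of all tested genes, while 98 (26.7%) were neither called nor bounded. The starved libraries chose these 367 genes too and also enter the comparison, so the direction of these counts is partly set by the choice. The median share of the distance was 18.0% (quartiles 4.0% and 36.1%), with 16.0% and 18.1% for the single fulvestrant libraries, and 12 genes had covered 75% or more. Only 1 of the 367 (0.272%, beside 0.107% of all tested genes) was called higher with fulvestrant than in complete vehicle. That gene was IL1R1, the signalling receptor for interleukin-1, with 35.4 and 34.9 CPM in fulvestrant, 58.6 and 61.2 CPM in starved and 23.5 and 23.8 CPM in complete vehicle libraries. The 3 groups did not overlap in IL1R1, and the log2 difference of fulvestrant from starved was -0.77 ± 0.0881 (adjusted p = 2.6e-06). A smaller rise by starvation was shown by EPHA4, an ephrin receptor kinase, which had 172 and 173 CPM with fulvestrant, 246 and 223 CPM in starved and 136 and 131 CPM in complete vehicle libraries (-0.44 ± 0.0648 from starved, adjusted p = 4.7e-05).

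**Figure D2:**
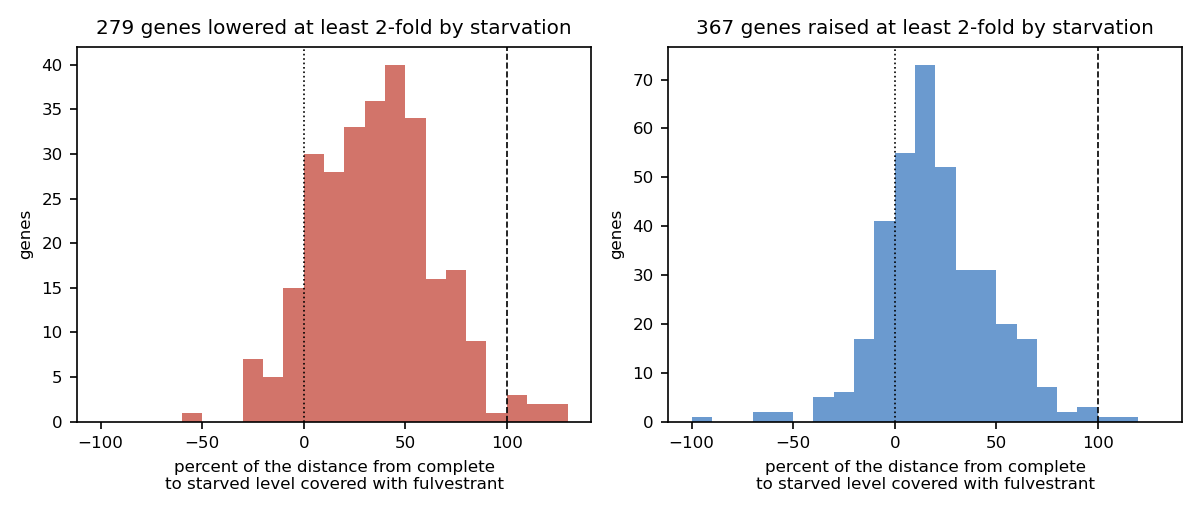
Number of genes (y axis) by the percent of the log2 distance from the complete to the starved level that was covered with fulvestrant (x axis, bins of 10 percentage points), for the 279 genes lowered and the 367 genes raised at least 2-fold by starvation. The dotted line marks the complete vehicle level and the dashed line the starved level; the medians are 35.7% for lowered and 18.0% for raised genes.

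The 12 lowered genes within 1.5-fold of their starved level included several regulators. MYC, the growth-promoting transcription factor, had 59.9 and 61.8 CPM with fulvestrant against 57.2 and 45.5 CPM in starved cells, and 142 and 124 CPM in complete vehicle. The fulvestrant libraries lay just above the starved ones and far below complete vehicle, with a log2 difference of 0.24 from starved (95% interval 0.02 to 0.47, adjusted p = 0.14). ARL3, a small GTPase of ciliary trafficking, had 65.4 and 68.5 CPM with fulvestrant and 62.8 and 59.3 CPM in starved cells, against 130 and 129 CPM in complete vehicle (log2 difference from starved 0.13, 95% interval -0.02 to 0.28). NRIP1, a corepressor and coactivator of nuclear receptors, had 170 and 174 CPM with fulvestrant and 140 and 141 CPM in starved cells, a small but called difference of 0.29 ± 0.067 (adjusted p = 0.004) that was lost without starved library 3. CA12, a membrane carbonic anhydrase, was likewise called higher, by 0.39 ± 0.0533 (adjusted p = 1.9e-05), with 236 and 241 CPM against 182 and 181 CPM in starved cells. CA12 had covered 65.8% of the distance from the complete to the starved level. NHERF1, a scaffold of the apical membrane, and SFXN2, a mitochondrial carrier, were 0.37 and 0.31 higher (adjusted p = 0.0013 and 0.002), the call of SFXN2 being lost without starved library 4. RUNX1, a DNA-binding factor that acts with the receptor at some of its sites, was the 1 gene called below its starved level, with 296 and 300 CPM against 354 and 349 CPM in starved cells and 761 and 735 CPM in complete vehicle (log2 difference -0.24 ± 0.0522, adjusted p = 0.0026). The other 5 were GNG11, SERPINA10, SEMA6A and the IDs ENSG00000284376 and ENSG00000283952.

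A list of 51 known estrogen-induced genes, some of them taken with earlier results of these data known, had 47 tested members. With fulvestrant 25 were above the starved level (53.2%, beside 8.08% of all tested genes), 5 below it (10.6%, beside 8.15%) and 17 not called. Within 1.5-fold lay 15 of the 47, beside 48.4% of all tested genes. The median log2 difference was 0.39, beside 0.007 over all tested genes. Against complete vehicle 33 of the 47 were lower with fulvestrant, beside 1.05% of all tested genes. None was higher by edgeR, DESeq2 or an unadjusted p under 0.05, beside 0.107% of all tested genes called higher by edgeR. In starved cells 37 were lower and 1 higher than in complete vehicle, beside 9.67% and 9.1% of all tested genes. GREB1, an estrogen-induced coregulator of the receptor at chr2:11482888-11642788, had 586 and 591 CPM with fulvestrant, 329 and 294 CPM in starved and 1354 and 1266 CPM in complete vehicle libraries. Its fulvestrant level lay clear of both, 0.92 ± 0.0545 above starved (adjusted p = 2.6e-10), at 55.7% of the distance. PGR, which encodes the progesterone receptor, had 998 and 1090 CPM with fulvestrant against 763 and 705 CPM in starved cells and 1597 and 1625 CPM in complete vehicle, at 55.2% of the distance (0.51 ± 0.0587 above starved, adjusted p = 2.9e-06). CXCL12, a chemokine, had 30 and 34.3 CPM with fulvestrant against 13 and 12.7 CPM in starved cells and 115 and 119 CPM in complete vehicle (1.32 ± 0.147, adjusted p = 1.8e-06). FHL2, a LIM-domain cofactor, and OLFM1, a secreted olfactomedin, were 1.24 ± 0.058 and 1.80 ± 0.128 above starved (adjusted p = 9.5e-12 and 3.5e-09). RET, a receptor tyrosine kinase, was 1.89 above starved and was not called against complete vehicle (adjusted p = 0.55). CCND1, which encodes cyclin D1, had 96.4 and 75.7 CPM with fulvestrant against 64.5 and 62.4 CPM in starved cells (0.44 ± 0.118, adjusted p = 0.012), a call that was lost without fulvestrant library 3 or without either starved library. XBP1, the transcription factor of the secretory pathway, was 0.33 ± 0.0934 higher (adjusted p = 0.02), a call lost without fulvestrant library 4 or either starved library.

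Other estrogen-induced genes lay within 1.5-fold of the starved level and were not called. RARA, the retinoic acid receptor alpha, had 226 and 221 CPM with fulvestrant against 245 and 242 CPM in starved cells and 419 and 375 CPM in complete vehicle. Its fulvestrant level was slightly under the starved one, with a log2 difference of -0.12 (95% interval -0.26 to 0.01). FKBP4, a cochaperone of steroid receptors, had 91.9 and 84.5 CPM with fulvestrant against 79.4 and 85.5 CPM in starved cells, with overlapping libraries, and 160 and 155 CPM in complete vehicle (log2 difference from starved 0.10, 95% interval -0.06 to 0.26). MYBL1, a MYB family transcription factor, had 77.4 and 91.9 CPM with fulvestrant and 85.3 and 83.8 CPM in starved cells against 171 and 162 CPM in complete vehicle. TIPARP, an ADP-ribosyltransferase, had 53.6 and 63.5 CPM with fulvestrant and 57 and 61 CPM in starved cells against 87.6 and 93.7 CPM in complete vehicle. SPINK4, a Kazal-type protease inhibitor outside the list, had 13.9 and 13.3 CPM with fulvestrant against 10.7 and 9.5 CPM in starved cells and 50.3 and 56.4 CPM in complete vehicle. Its log2 difference of 0.43 was not called (adjusted p = 0.11), and the 95% interval of 0.06 to 0.79 reached past 1.5-fold. TFF1, a classic estrogen-induced secreted peptide, had too few reads for the test, with 0 and 2 counts with fulvestrant, 1 and 3 in starved and 6 and 7 in complete vehicle libraries.

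PDZK1, a PDZ-domain scaffold of membrane transporters and a known estrogen-induced gene, was the list member farthest above its starved level. It had 20.4 and 27.7 CPM with fulvestrant against 4.6 and 4.39 CPM in starved cells and 75.9 and 78.4 CPM in complete vehicle, a log2 difference from starved of 2.40 ± 0.197 (adjusted p = 2.7e-08) at 41.3% of the distance. The 250 bases before its outermost RefSeq start are shown because they hold the nuclear receptor core motif, here in capitals, on the minus strand of GRCh38.p14 (chr1:145707401-145707650).
PDZK1: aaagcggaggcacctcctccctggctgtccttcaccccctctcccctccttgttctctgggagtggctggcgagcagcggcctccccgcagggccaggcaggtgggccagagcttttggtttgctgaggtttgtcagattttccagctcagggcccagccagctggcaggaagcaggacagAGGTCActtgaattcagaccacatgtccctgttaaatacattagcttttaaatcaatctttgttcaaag
The motif searched was AGGTCA or its complement TGACCT on either strand. It was present in the promoter windows of 4 of 37 estrogen-induced genes with a RefSeq window (10.8%), beside 12.5% of 13723 tested genes. The palindromic estrogen response element, searched as GGTCA and TGACC with any 3 bases between them, was in none of the 37 windows and in 0.0583% of tested genes. A match in these letters is a description of the sequence and not of binding.

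**Figure D3:**
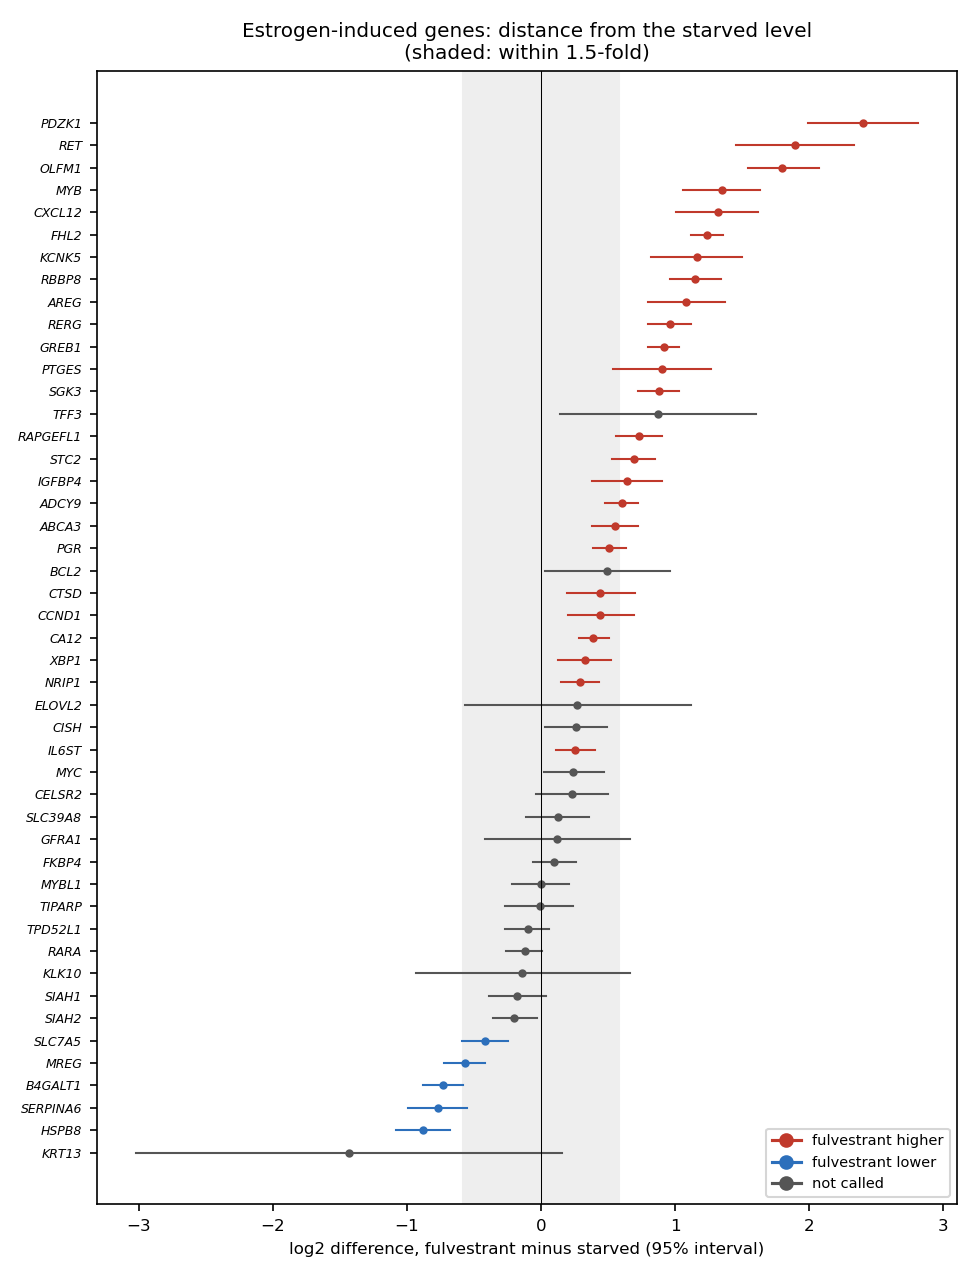
Log2 difference of fulvestrant minus starved vehicle (x axis) for the 47 tested estrogen-induced genes (y axis), with 95% intervals as bars. The shaded band spans 1.5-fold in either direction; 25 genes are called higher (red), 5 lower (blue) and 17 are not called (grey).

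The transcription of the receptor gene itself stayed nearer to the unstarved level. ESR1, at chr6:151656672-152129619, had 1700 and 1690 CPM with fulvestrant against 1036 and 1020 CPM in starved cells and 1999 and 1993 CPM in complete vehicle. The 3 groups did not overlap, and fulvestrant was 0.72 ± 0.04 above starved (adjusted p = 9.5e-11) with a log2 difference of -0.24 from complete vehicle (adjusted p = 0.0017). Of 38 nuclear receptors and cofactors, 6 were higher (15.8%, beside 8.08% of all tested genes) and 5 lower (13.2%, beside 8.15%) than starved, with a median of 0.03. The 6 were ESR1, ESR2, PGR, NRIP1, GREB1 and the coactivator NCOA7, and the 5 lower were the glucocorticoid receptor NR3C1, the mineralocorticoid receptor NR3C2, RARB, NR2F1 and the coactivator NCOA3. FKBP5, a cochaperone induced by progestins, androgens and glucocorticoids, had 319 and 343 CPM with fulvestrant against 190 and 196 CPM in starved cells (0.78 ± 0.0587, adjusted p = 9e-09) and 323 and 329 CPM in complete vehicle. ZBTB16, another gene induced by those steroids, was 1.31 ± 0.208 higher than starved (adjusted p = 0.00012). Of the 20 tested progestin, androgen and glucocorticoid targets 3 were higher (15%, beside 8.08%) and 6 lower (30%, beside 8.15%) than starved. Among the lower were DUSP1, a phosphatase that acts on MAP kinases, and ERRFI1, an inhibitor of EGFR signalling, with log2 differences of -0.69 ± 0.143 and -0.39 ± 0.081 (adjusted p = 0.0018 and 0.002).

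A second choice of genes took the 11 that both raloxifene and tamoxifen lowered against complete vehicle. Those libraries do not enter the comparison of fulvestrant with starved. Filter, scaling and spread came from all libraries together, so the choice was not independent of the fulvestrant and starved libraries. Those 11 are 0.0471% of tested genes. Fulvestrant was above the starved level in 5 of them, below it in 2 and within 1.5-fold in 7. Of the 7, CA12 and IL6ST were also called above, RUNX1 was called below, and MYBL1, PRAG1, RMDN2-AS1 and ENSG00000254024 were not called. The 5 above were CA12, FMN1, a formin, IL6ST, the shared signal transducer of interleukin-6 cytokines, OLFM1, and PTP4A2, a prenylated tyrosine phosphatase, by 0.25 to 1.80 on the log2 scale. FMN1 had 365 and 389 CPM with fulvestrant against 188 and 181 CPM in starved cells and 603 and 610 CPM in complete vehicle (1.03 ± 0.0525, adjusted p = 2.6e-11). The 2 below were RUNX1 and B4GALT1. The counts depended on single libraries, with none above or below without complete vehicle library 3, 1 above without complete vehicle library 4 or either starved library, and 36 above and 23 below with the replicate number as a block, which chose more genes. In a wider choice made after seeing the data, the 112 genes (0.479%) lowered by raloxifene, 41 (36.6%) were above the starved level, 23 (20.5%) below it and 61 (54.5%) within 1.5-fold. Over all tested genes the shares were 8.08%, 8.15% and 48.4%, so the share within 1.5-fold was near that of all genes.

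The other antagonists were compared at the same dose and time. Library totals were 7856803 and 3682311 counts for raloxifene and 7393181 and 6055972 for tamoxifen. Log2 CPM of the 2 libraries correlated with r = 0.976 for raloxifene and 0.984 for tamoxifen. The part of depth in the drug differences was not tested. The median share of the distance over the 279 genes was 35.7% for fulvestrant, 19.2% for raloxifene and 11.9% for tamoxifen. Over the 367 starvation-raised genes it was 18.0% for fulvestrant, 20.8% for raloxifene and 13.6% for tamoxifen, so the order of fulvestrant and raloxifene was not the same in both sets. These values share their vehicle libraries and carry no test. Tested directly in 2 drug pairs, with p-values adjusted over all genes within each pair, fulvestrant was lower than raloxifene in 21 of the 279 genes and higher in none, beside 24 genes lower (0.103%) and 0 higher over all tested genes. At an unadjusted p under 0.05 edgeR had 402 genes higher than raloxifene, 3 of them among the 279, and DESeq2 called 0. It was lower than tamoxifen in 55 and higher in none (4 at an unadjusted p under 0.05, none by DESeq2), beside 106 lower (0.453%) and 2 higher (0.00856%). SPINK4 had 13.9 and 13.3 CPM with fulvestrant against 34.3 and 44 CPM with raloxifene and 39 and 39.3 CPM with tamoxifen, log2 differences of -1.48 ± 0.141 and -1.52 ± 0.137 (adjusted p = 1.3e-05 and 1.5e-06). GREB1 had 586 and 591 CPM with fulvestrant against 924 and 965 CPM with raloxifene and 1110 and 1088 CPM with tamoxifen (-0.68 ± 0.053 and -0.90 ± 0.0527, adjusted p = 1.1e-06 and 3.2e-09). IGFBP4, which binds insulin-like growth factors, had a log2 difference from raloxifene of -1.06 ± 0.107 (adjusted p = 2e-05). That of MYC, -0.45, was not called (95% interval -0.67 to -0.23, adjusted p = 0.21). CA12 was not called between fulvestrant and raloxifene (log2 difference -0.16, 95% interval -0.27 to -0.05, adjusted p = 0.84) but was lower than with tamoxifen (-0.40 ± 0.0518, adjusted p = 0.00021).

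**Figure D4:**
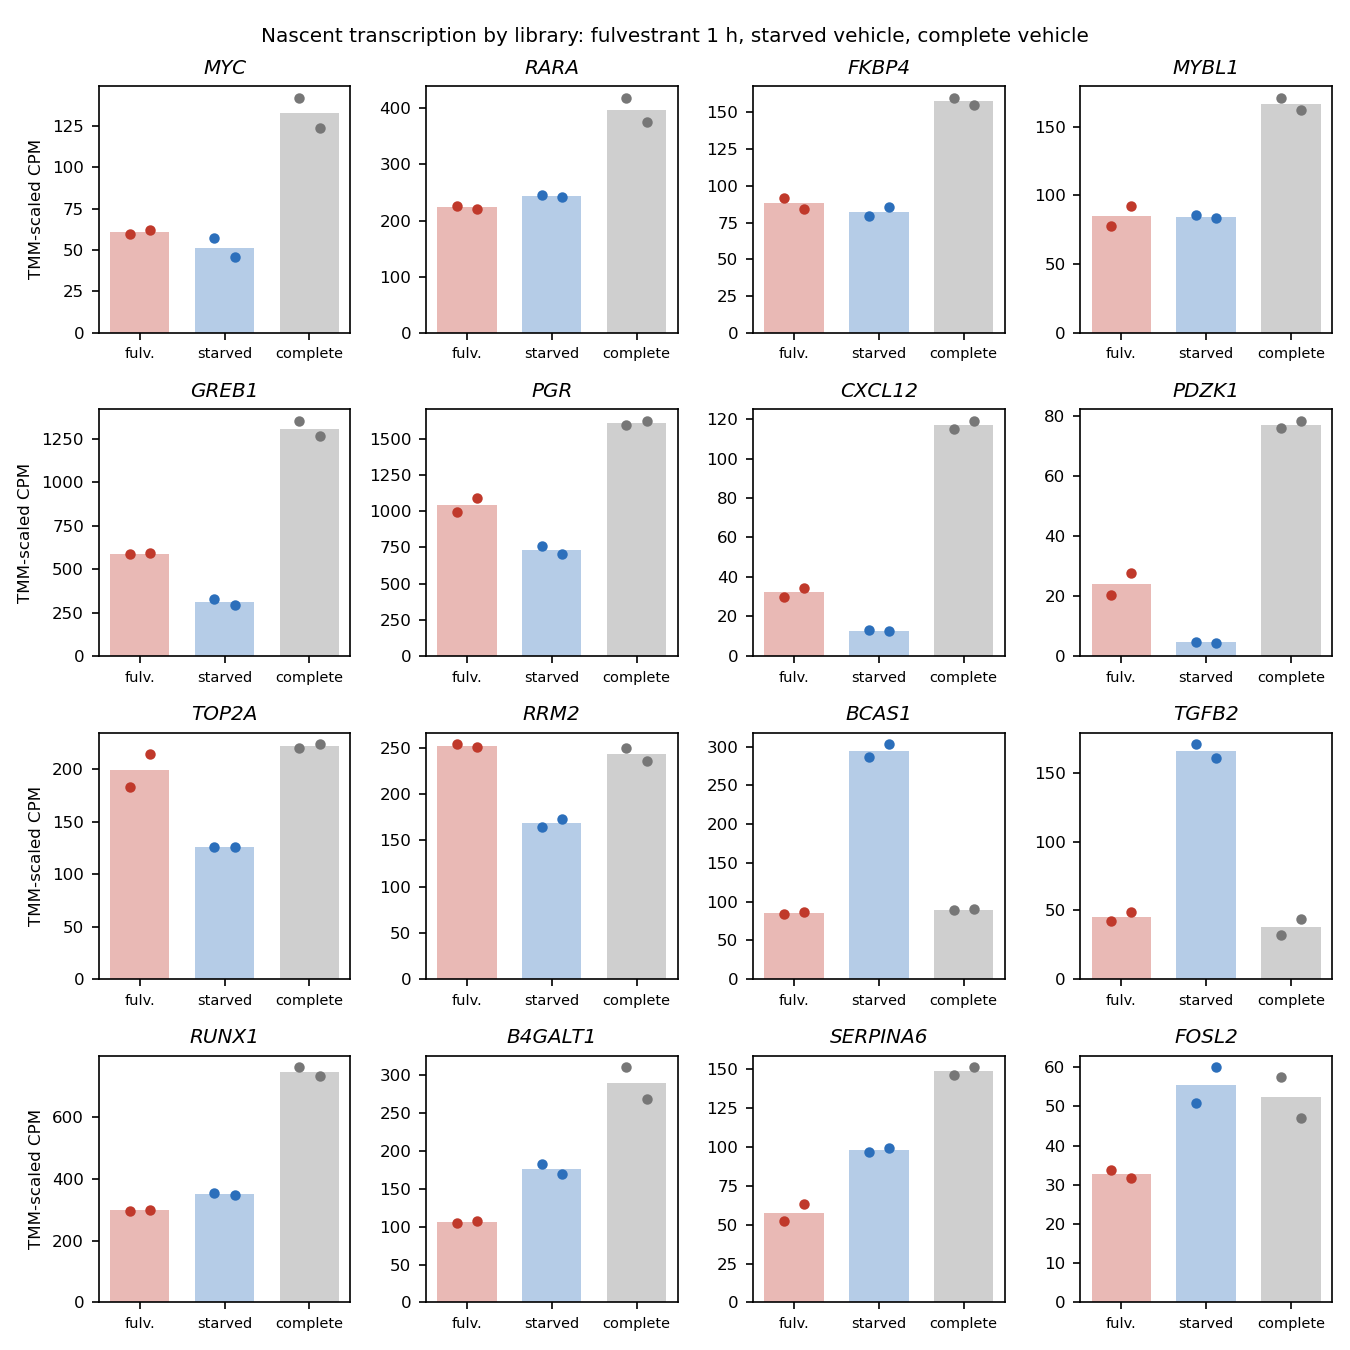
TMM-scaled CPM (y axes, from 0) of 16 genes in fulvestrant, starved vehicle and complete vehicle libraries; dots are single libraries and bars the mean of 2. The rows show genes at or near the starved level, genes between the vehicle levels, genes near the complete vehicle level, and genes called below both vehicle levels.

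Most cell cycle genes were called above their starved level and few differed from complete vehicle. In bulk libraries, fewer cells in a phase and less transcription in each cell cannot be told apart. Of 36 genes of G2/M and mitosis, 33 were higher with fulvestrant than in starved cells (91.7%, beside 8.08% of all tested genes), 1 lower and 2 not called, with a median log2 difference of 0.50. Against complete vehicle none of the 36 was called with fulvestrant by edgeR or DESeq2, or reached an unadjusted p under 0.05 (median -0.06). Over all tested genes 0.107% were called higher and 1.05% lower by edgeR. In starved cells 33 of the 36 were lower than in complete vehicle (median -0.53), beside 9.67% of all tested genes. TOP2A, the DNA topoisomerase of dividing cells, had 183 and 215 CPM with fulvestrant against 126 and 126 CPM in starved cells and 220 and 224 CPM in complete vehicle (0.66 ± 0.0793, adjusted p = 4.4e-06). ECT2, an exchange factor needed for cytokinesis, TPX2, a spindle assembly factor, and NUSAP1, a spindle-binding protein, were 0.56 ± 0.0599, 0.50 ± 0.0584 and 0.53 ± 0.062 higher (adjusted p = 1.2e-06, 3.2e-06 and 3.1e-06). The exception that was lower was ASPM, a spindle pole protein (log2 difference -0.25), and CDC20 and CENPA were not called. Of 43 genes of G1/S and DNA replication 31 were higher (72.1%, beside 8.08% of all tested genes), 1 lower and 11 not called (median 0.51). Starved cells were lower than complete vehicle in 35 of the 43, beside 9.67% of all tested genes. RRM2, the small subunit of ribonucleotide reductase, had 254 and 251 CPM with fulvestrant against 165 and 173 CPM in starved cells and 250 and 236 CPM in complete vehicle (0.58 ± 0.0582, adjusted p = 4.3e-07). DTL, a substrate receptor of the CUL4 ubiquitin ligase, had 146 and 148 CPM with fulvestrant against 88.2 and 88.4 CPM in starved cells (0.73 ± 0.0736, adjusted p = 4.4e-07). CDK6, a D-cyclin-dependent kinase, ran the other way, with 30.5 and 29.7 CPM with fulvestrant against 66.2 and 67.5 CPM in starved cells (-1.15 ± 0.0927, adjusted p = 2.2e-08).

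The promoters of most G2/M genes hold letters that the list did not use. Searched on both strands in 250 bases before the start, CCAAT (complement ATTGG) was present in 26 of 30 G2/M genes with a RefSeq window (86.7%), beside 40.2% of tested genes. It was also present in 16 of 20 windows of cholesterol synthesis and uptake genes (80%), a list with 14 members called lower than starved and none higher. The letters TTTGAA (complement TTCAAA), those of the cell cycle homology region, were present in 19 of 30 (63.3%), beside 13% of tested genes. Windows of TOP2A (minus strand, chr17:40417897-40418146) and CCNB2, which encodes cyclin B2 (plus strand, chr15:59104896-59105145), are shown because both genes were called higher with fulvestrant than starved and hold both motifs, which are in capitals.
TOP2A: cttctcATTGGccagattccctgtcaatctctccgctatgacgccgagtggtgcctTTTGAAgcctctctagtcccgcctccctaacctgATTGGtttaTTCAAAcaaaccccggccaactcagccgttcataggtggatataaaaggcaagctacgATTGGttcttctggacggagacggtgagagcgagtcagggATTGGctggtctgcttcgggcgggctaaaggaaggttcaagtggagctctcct
CCNB2: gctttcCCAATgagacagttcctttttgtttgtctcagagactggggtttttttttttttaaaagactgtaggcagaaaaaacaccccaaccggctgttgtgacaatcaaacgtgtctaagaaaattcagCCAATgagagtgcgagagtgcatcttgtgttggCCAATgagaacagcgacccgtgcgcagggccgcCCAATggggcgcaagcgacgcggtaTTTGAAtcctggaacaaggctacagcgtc
TOP2A holds 4 CCAAT and 2 TTTGAA matches and CCNB2 holds 4 and 1. CCNB2 had 57.5 and 55.6 CPM with fulvestrant against 44 and 42.4 CPM in starved cells and 60.1 and 59.3 CPM in complete vehicle (0.39 ± 0.0812, adjusted p = 0.0019). In the G1/S list CCAAT was present in 21 of 35 windows (60%), and TTTGGCGC, letters of an E2F site, in 6 (17.1%), beside 1.01% of tested genes.

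Of 40 ribosome biogenesis genes 18 were higher with fulvestrant than starved (45%, beside 8.08% of all tested genes), none lower and 22 not called (median 0.34). Within 1.5-fold of the starved level lay 22 of the 40, beside 48.4% of all tested genes. None of the 40 was called between fulvestrant and complete vehicle, beside 0.107% higher and 1.05% lower over all tested genes. These counts of none were the same by DESeq2 and at an unadjusted p under 0.05. NPM1, the nucleolar chaperone nucleophosmin, had 247 and 255 CPM with fulvestrant against 183 and 180 CPM in starved cells and 248 and 251 CPM in complete vehicle (0.47 ± 0.0586, adjusted p = 8.5e-06). WDR74, a factor of large-subunit assembly, was 0.65 ± 0.0764 higher (adjusted p = 3.9e-06), and NAT10, an RNA acetyltransferase, 0.47 ± 0.0615 higher (adjusted p = 1.5e-05).

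**Figure D5:**
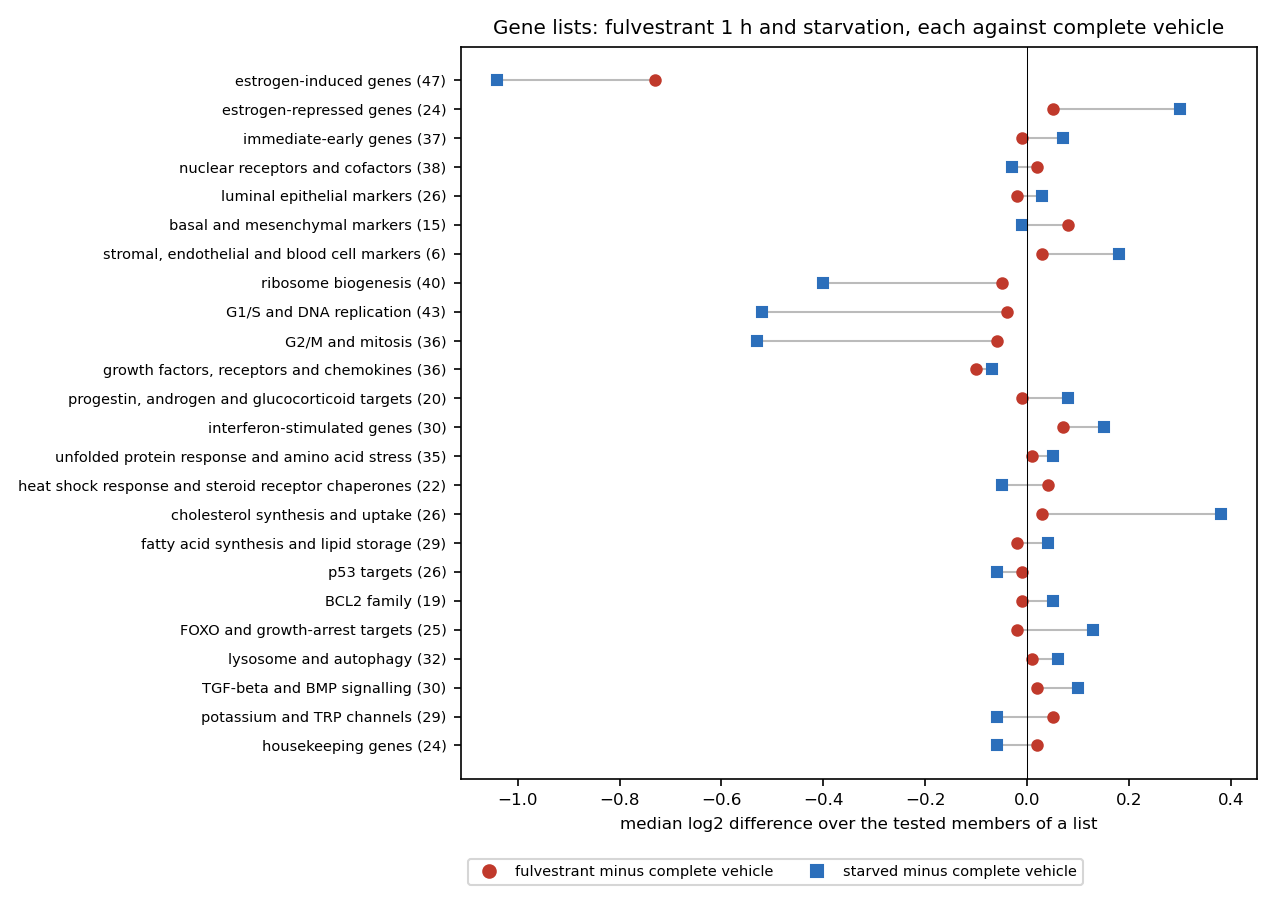
Median log2 difference over the tested members (number in brackets) of each of the 24 gene lists, for fulvestrant minus complete vehicle (red circles) and starved minus complete vehicle (blue squares); both share the complete vehicle libraries. In G2/M, G1/S and ribosome biogenesis the circle stays near 0 while the square lies between -0.53 and -0.40, and in estrogen-induced genes the circle is at -0.73 and the square at -1.04.

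Of the genes of cholesterol synthesis and uptake, 14 of 26 tested were below their starved level (53.8%, beside 8.15% of all tested genes). Within 1.5-fold of it lay 11, beside 48.4% of all tested genes. None of the 26 was higher by edgeR or DESeq2 or at an unadjusted p under 0.05, and 12 were not called (median -0.39). Against complete vehicle 1 was higher and 1 lower with fulvestrant, beside 0.107% and 1.05% of all tested genes. In starved cells 17 were higher than in complete vehicle, beside 9.1% of all tested genes. SC5D, the sterol desaturase late in the pathway, had 65.1 and 81.4 CPM with fulvestrant against 146 and 156 CPM in starved cells and 73.3 and 72.9 CPM in complete vehicle (-1.05 ± 0.102, adjusted p = 3.1e-07). SREBF2, the transcription factor of the pathway, had 124 and 127 CPM with fulvestrant against 179 and 175 CPM in starved cells (-0.50 ± 0.0619, adjusted p = 7.4e-06).

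Of 24 tested estrogen-repressed genes 12 were lower than starved (50%, beside 8.15% of all tested genes) and 2 higher (8.33%, near the 8.08% of all tested genes), with a median of -0.27. Against complete vehicle 2 were higher and 3 lower with fulvestrant (median 0.05), beside 0.107% and 1.05% of all tested genes. In starved cells 13 were higher and 3 lower than in complete vehicle (median 0.30), beside 9.1% and 9.67%. ZNF608, a zinc finger protein, had a log2 difference from starved of -1.24 ± 0.084 (adjusted p = 1.9e-09). That of PIK3R3, a regulatory subunit of phosphoinositide 3-kinase, was -0.67 ± 0.0549 (adjusted p = 2.6e-08). EGFR, the epidermal growth factor receptor and also a basal marker, had 51.7 and 56.6 CPM with fulvestrant against 113 and 119 CPM in starved cells (-1.10 ± 0.0795, adjusted p = 4.6e-09). ERBB4, the luminal receptor for neuregulins, had 1119 and 1235 CPM with fulvestrant against 722 and 708 CPM in starved cells (0.72 ± 0.06, adjusted p = 3.2e-08). Of the 36 growth factors, receptors and chemokines tested, 9 were higher (25%, beside 8.08%) and 9 lower (25%, beside 8.15%). Of 37 immediate-early genes 11 were lower (29.7%, beside 8.15%) and 3 higher (8.11%, near the 8.08% of all tested genes), with a median of -0.20. JUN, an AP-1 subunit, had 49.7 and 62.6 CPM with fulvestrant against 105 and 117 CPM in starved cells (-0.98 ± 0.0957, adjusted p = 3e-07), and DUSP4, a phosphatase that acts on MAP kinases, had 55.9 and 61.3 CPM against 19.1 and 17.4 CPM (1.68 ± 0.12, adjusted p = 4.1e-09). CDKN2B, an inhibitor of CDK4 and CDK6, had a log2 difference from starved of -1.47 ± 0.147 (adjusted p = 4.3e-07), and KCNC1, a voltage-gated potassium channel, one of -1.68 ± 0.177 (adjusted p = 8.5e-07).

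In other lists the calls were fewer or went both ways. Over all tested genes 8.08% were higher and 8.15% lower than starved. Interferon-stimulated genes had none higher by edgeR or DESeq2 (4 at an unadjusted p under 0.05) and 2 lower of 30 (6.67%), which were OAS2 and MX1; the call of MX1 was lost without any 1 of the 4 libraries and that of OAS2 without starved library 4. Unfolded protein response genes had 6 higher (17.1%) and 5 lower (14.3%) of 35, and p53 targets 5 higher (19.2%) and 1 lower (3.85%) of 26. The BCL2 family had 1 higher (5.26%) and 2 lower (10.5%) of 19. Luminal markers had 4 higher (15.4%) and 5 lower (19.2%) of 26, among them GRHL2, a grainyhead factor that was 0.50 ± 0.0435 higher (adjusted p = 5.4e-08), and ELF3, an epithelial ETS factor with a log2 difference of -0.69 ± 0.076 (adjusted p = 1.5e-06). Of 24 housekeeping genes 7 were higher (29.2%) and 1 lower (4.17%), with a median of 0.14.

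With fulvestrant 47 genes (0.201%) were below and 8 (0.0342%) above both the starved and the complete vehicle level, each of the 2 tests past the threshold, with the fulvestrant libraries shared between them. Among the 47, starvation was not called against complete vehicle in 29. It was lower in 8 (17.0%, beside 9.67% of all tested genes) and higher in 10 (21.3%, beside 9.1%). B4GALT1, a galactosyltransferase, had 105 and 108 CPM with fulvestrant against 182 and 170 CPM in starved cells and 310 and 268 CPM in complete vehicle, a log2 difference from starved of -0.73 ± 0.072 (adjusted p = 3.9e-07). SERPINA6, which encodes corticosteroid-binding globulin, had 52.2 and 63.1 CPM with fulvestrant against 96.7 and 99.4 CPM in starved cells and 146 and 151 CPM in complete vehicle (-0.77 ± 0.105, adjusted p = 2e-05). In both genes the fulvestrant libraries lay lowest and the 3 groups did not overlap. FOSL2, an AP-1 subunit, had 33.8 and 31.8 CPM with fulvestrant against 50.9 and 59.9 CPM in starved cells and 57.6 and 47 CPM in complete vehicle, where the vehicle groups overlapped each other. KRT15, a type I keratin, had 189 and 222 CPM with fulvestrant against 385 and 386 CPM in starved cells and 302 and 313 CPM in complete vehicle (-0.91 ± 0.112, adjusted p = 6.4e-06). PPM1K, a mitochondrial phosphatase, had a log2 difference from starved of -0.93 ± 0.12 (adjusted p = 1.1e-05), and IGFBP5, which also binds insulin-like growth factors, one of -0.77 ± 0.0734 (adjusted p = 2.4e-07).

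The 8 genes above both were ABCC5, TESK2, MEGF9, EFHD1, RNF152, SPTLC2, TM4SF18-AS1 and the ID ENSG00000288208. ABCC5, an ATP-binding cassette exporter, had 358 and 356 CPM with fulvestrant against 264 and 265 CPM in starved cells and 269 and 279 CPM in complete vehicle, 0.43 ± 0.0506 above starved (adjusted p = 3.3e-06). SPTLC2, a subunit of serine palmitoyltransferase, had 389 and 382 CPM with fulvestrant against 241 and 230 CPM in starved cells and 320 and 306 CPM in complete vehicle (0.71 ± 0.0562 above starved, adjusted p = 1.8e-08). The differences from starved of the 8 genes ran from 0.32 in EFHD1 to 0.75 in TM4SF18-AS1 on the log2 scale. The total of 55 genes outside both levels depended on single libraries, with 18 without fulvestrant library 3 and 30 without either complete vehicle library. It was 36 by DESeq2 and 120 with the replicate number as a block.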

How the data were processed

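The authors deposited unnormalized counts of PRO-seq reads, 1 row for each Ensembl gene. The submitters' processing notes name Bowtie2 2.4.4, SAMtools 1.9, cutadapt 1.8.1 and build hg38. The assignment of reads to genes and its strand setting were not given in the sources used here, so overlapping and antisense genes are uncertain. Of 60605 IDs, 142 had no symbol (0.2807% of counts) and 1195 that repeated a symbol (0.0741%) were left out. TUBB, HLA-E and HSPA1A are listed at 0 in all 6 libraries shown, so an entry of 0 need not mean a silent gene.

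Groups came from the labels, whose descriptions number the libraries 3 and 4 (used here) and whose titles number them otherwise. Per the labels' protocols the medium was complete, while their descriptions and the series design name starvation. Separate cultures are not stated, and p-values then reflect only library-to-library spread, possibly technical. The 2 libraries of each group differed by more than sampling noise (chi-square per gene 1.65 for fulvestrant, 1.2 for starved and 1.32 for complete vehicle). PCR duplicates cannot be told from molecules.

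With R 4.3.3 and edgeR 4.0.16, low genes were removed by filterByExpr (23375 left), sizes were scaled by TMM, and the quasi-likelihood model was fitted to all 12 libraries in 6 groups, with Benjamini-Hochberg adjustment over all tested genes and a threshold of 0.05. The test was also run on simulated data drawn from its own fitted model with independent libraries. That run cannot check for a shared batch or for technical libraries. The share of distance is the fitted log2 difference of fulvestrant from complete vehicle divided by that of starved from complete vehicle. For single fulvestrant libraries it was taken from log2 CPM with a prior count of 2. Promoters and positions are RefSeq's (GRCh38.p14), matched by symbol. Alternatives were DESeq2 1.42.0, other scalings and filters, a replicate block, a fit of 3 groups and leaving out each library. Splitting the share by gene length was void, since under 80% of the starvation-lowered and starvation-raised genes had a position.

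The comparison, the genes and the 24 lists were chosen with earlier results of these data known. Named genes were the 10 highest and 10 lowest called genes without overlap whose mean count reached 50, up to 10 starvation-moved genes within 1.5-fold, up to 4 members per list by adjusted p, up to 10 genes below and 10 above both vehicles, and a fixed set. Others, such as MYBL1, TIPARP, RET, CCNB2 and FMN1, were named after their values were seen.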

Additional observations from a re-analysis of the deposited data

How the results depend on the processing

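Over the alternatives run, 1896 values of single genes were recomputed: 1840 kept their direction and side of the threshold, 41 lost the call, 11 gained one, and 4 changed sign. Those 4 were ENSG00000284376 at 0.06 without fulvestrant library 3 and 0.09 without starved library 3, and, without starved library 3, ENSG00000283952 at 0.06 and ITGAM at -0.24. Leaving out each library in turn gave -0.26 to 0.09, -0.28 to 0.06 and -0.24 to 1.43 for these genes; none was called, and the cause was not tested. No gene called in the report was called in the opposite direction under any alternative.

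DESeq2 called 943 genes higher and 969 lower, found 36 genes outside both vehicle levels, and gave median shares of 37.0% (lowered) and 13.6% (raised). Without a filter on low counts, 17 antagonist-lowered genes were above and 16 below the starved level, and the share for lowered genes was 33.9%; it was 33.7% with 3 groups in the fit, where the antagonist genes could not be chosen. With a replicate block, 2604 genes were higher and 2601 lower, 36 antagonist-lowered genes were above and 23 below, 120 genes were outside both levels, and the shares were 33.4% and 19.6%. The labels do not say whether a number marks a shared batch, and 2 pairs are too few to decide on the pairing from the data. Deviations of same-numbered libraries correlated at 0.126 for fulvestrant and starved, 0.23 for fulvestrant and complete vehicle and 0.126 for starved and complete vehicle.

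Leaving out each fulvestrant or starved library gave 961 to 1169 genes higher and 1165 to 1394 lower. Leaving out each of those or of the complete vehicle libraries gave 10 to 13 lowered and 0 to 1 raised genes within 1.5-fold, 143 to 170 lowered genes above, 214 to 257 raised genes below, 0 to 6 antagonist-lowered genes above and 0 to 3 below, 18 to 47 outside both levels, and shares of 31.2% to 37.6% and 14.9% to 20.3%. A starvation fold of 1.5 gave 74 lowered genes within and 564 above, and 30 raised genes within and 683 below. A margin of 2-fold gave 64 lowered and 26 raised genes within. Genes lowered by raloxifene, an alternative added after seeing the data, gave 41 above and 23 below. With 2 libraries a group, intervals of low genes are wide, and the 95 lowered and 98 raised genes neither called nor bounded cannot be placed at this depth.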
